A study of Mus musculus with 31 samples.

Results

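The comparison described here set spleen regulatory T cells (Tregs) of mice given FP, mouse IL-2 joined to mouse CD25 in 1 protein, against those of mice given PBS, both collected 72 h after injection. It holds 6 of the 31 ATAC-seq libraries in the series, chosen by their labels: 3 FP libraries and 3 PBS libraries, which make up 2 of 10 groups. All the mice were C57BL/6 carrying a red fluorescent FoxP3 reporter, by which the cells could be sorted, and received either FP (20 µg) or PBS (100 µL). The other groups used below were FP with its own PBS group at 0.75, 16 and 168 h, and 5 µg of unfused mouse IL-2 with PBS at 0.75 h. The 3 libraries of the IL-2 group at 16 h were part of the fits at 16 h and of those over all libraries, but of no contrast given here. The time of 72 h comes from the library titles, since the treatment text of every library names 0.75 h. No age or sex was used here, and the labels do not say that each library came from its own animal, so p-values measure the spread between these libraries. The 6 libraries at 72 h share a sample date that the other times do not, so differences between times and between dates cannot be told apart except through each time's own PBS group.

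ATAC-seq marks open chromatin by letting the Tn5 transposase insert adapters where DNA is accessible, and a peak is a stretch with many insertions. IL-2 binds a receptor whose CD25 chain (Il2ra) gives high affinity, and Tregs carry CD25 at steady state and depend on IL-2 for their number and for Foxp3 expression. The receptor works through JAK kinases that phosphorylate STAT5, which then binds DNA at palindromes of the TTC...GAA type near genes such as Cish, Socs2, Bcl2 and Il2ra. Fusing IL-2 to CD25 gives a molecule whose own CD25 part can occupy its IL-2 part, and which acts for longer in mice than IL-2. The comparison at 72 h asks whether any of this chromatin response was left days after 1 injection. Because whole sorted populations were measured, fewer cells of a type and less signal per cell cannot be told apart.

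Sequences from RefSeq GRCm38.p6 are shown first for 9 chosen peaks, each on the plus strand. Capitals mark matches to TTCCNGGAA, TTCTNGGAA, TTCCNAGAA or TTCTNAGAA, a stringent form of the STAT5 palindrome that reads the same on both strands as a set. Matches occurred in 7.43% of the 100480 tested peaks, and in 11.9% of the 26118 peaks as wide as the middle range of the risen ones (503 to 896 bp). The first 6 windows are from peaks that were higher after FP at 72 h: Gab2 at chr7:97210151-97210443, Tspan14 at chr14:40905120-40905382, Rps21 at chr2:180249093-180249207, Pigz at chr16:31940732-31940821, Mkln1 at chr6:31490027-31490152 and Nampt at chr12:32856824-32856892. The Bcl2 window at chr1:106607005-106607244 is from one of the peaks most clearly opened by IL-2 at 0.75 h. The last windows, Gm25420 at chr2:80718178-80718327 and Gm5094 at chr17:52506866-52507015, are the centres of peaks that were lower after FP and hold no match. The windows do not stand for all peaks of their kind, since 48 of 85 risen and 4 of 42 fallen peaks held a match. A match of letters is a description of the sequence and not a measured binding site.
Gab2: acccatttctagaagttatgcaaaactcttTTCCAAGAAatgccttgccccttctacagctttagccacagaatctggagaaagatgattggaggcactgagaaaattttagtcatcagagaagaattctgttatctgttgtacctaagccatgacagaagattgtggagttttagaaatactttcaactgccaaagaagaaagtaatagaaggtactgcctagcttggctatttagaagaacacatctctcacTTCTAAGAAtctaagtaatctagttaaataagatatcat
Tspan14: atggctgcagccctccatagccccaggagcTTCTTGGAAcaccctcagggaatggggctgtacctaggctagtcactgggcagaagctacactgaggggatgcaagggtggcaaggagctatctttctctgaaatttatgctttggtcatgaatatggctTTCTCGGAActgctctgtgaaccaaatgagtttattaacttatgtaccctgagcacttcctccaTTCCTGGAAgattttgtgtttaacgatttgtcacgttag
Rps21: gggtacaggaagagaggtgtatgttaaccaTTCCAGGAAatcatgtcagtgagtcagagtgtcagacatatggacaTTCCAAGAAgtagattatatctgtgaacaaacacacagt
Pigz: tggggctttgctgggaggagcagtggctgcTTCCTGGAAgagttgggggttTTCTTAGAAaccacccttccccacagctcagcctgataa
Mkln1: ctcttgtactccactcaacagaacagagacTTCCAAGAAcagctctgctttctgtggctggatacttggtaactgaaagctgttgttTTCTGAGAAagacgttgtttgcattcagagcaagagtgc
Nampt: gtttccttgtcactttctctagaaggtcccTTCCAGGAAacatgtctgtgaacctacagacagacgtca
Bcl2: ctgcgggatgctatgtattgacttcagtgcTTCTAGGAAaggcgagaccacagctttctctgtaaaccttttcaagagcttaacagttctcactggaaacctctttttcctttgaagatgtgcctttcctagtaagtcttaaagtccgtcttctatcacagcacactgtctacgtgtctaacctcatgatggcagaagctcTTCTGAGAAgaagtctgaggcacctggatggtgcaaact
Gm25420: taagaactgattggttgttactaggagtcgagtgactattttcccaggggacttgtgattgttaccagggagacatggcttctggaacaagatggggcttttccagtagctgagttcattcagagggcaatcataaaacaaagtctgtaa
Gm5094: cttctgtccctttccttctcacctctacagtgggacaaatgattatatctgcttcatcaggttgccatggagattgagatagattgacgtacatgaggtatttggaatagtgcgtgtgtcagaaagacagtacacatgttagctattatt

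The deposited table counts reads in 104979 peaks, of which 100480 passed the filter on low counts at 72 h. Many peaks overlap others, so that runs of overlapping peaks counted as 1 region are given where this matters. Library totals were 29.7, 49.7 and 46.2 M counts in the FP libraries and 28.8, 20.0 and 59.6 M counts in the PBS libraries, a wide span within the PBS group. The first principal component held 59.0% of the variance and followed the total, from -117.6 in the smallest library, PBS replicate 2, to 82.8 and 79.3 in FP replicate 3 and PBS replicate 3. The second held 17.4% and placed the FP libraries at 70.1, 31.3 and -1.0 and the PBS libraries at -24.3, -34.5 and -41.6, without overlap. PBS replicate 2 stood apart, with a mean correlation of 0.901 to the other libraries, against 0.938 to 0.950 for the other 5, and with 58.7% of its counts outside the largest peak in promoter-labelled peaks, against 62.2% to 63.8%. That largest peak, on chromosome 1 (24611561 to 24615794, labelled Gm10222 and other predicted genes, a nuclear copy of mitochondrial sequence) took 24.4%, 21.1% and 22.1% of the counts of the FP libraries and 22.6%, 25.1% and 16.8% of the PBS libraries.

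The trend with library total was larger than the treatment difference. In a model holding both, the level per doubling of the total rose or fell in 21.2% of peaks, in 8091 upward (8.05%) and in 13222 downward (13.2%). Upward peaks were GC-rich (median 57.4%) and 65.1% promoter-labelled, and downward ones were GC-poorer (46.9%) and 16.0% promoter-labelled. The totals of the FP and PBS libraries overlapped, and treatment and log2 total correlated at only 0.30 over the 6 libraries, so that the treatment difference could be estimated with the total held in the model.

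**Figure D1:**
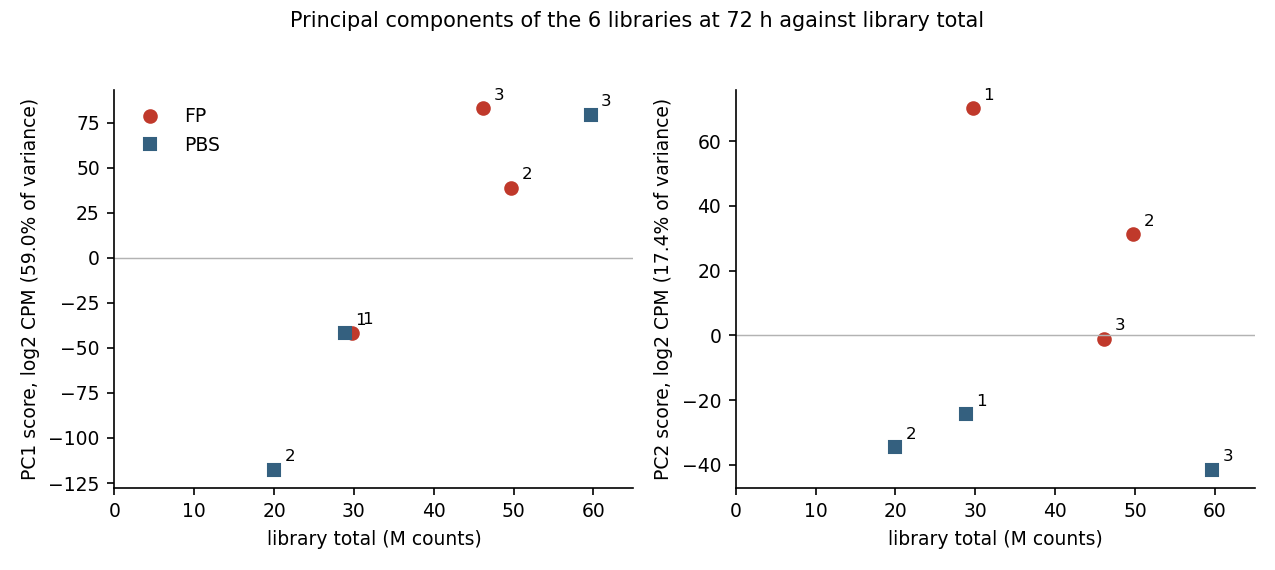
Libraries at 72 h on the first (left) and second (right) principal component of log2 CPM, plotted against library total (M counts); circles are FP libraries and squares PBS libraries, numbered by replicate. The first component (59.0% of variance) follows the library total, and the second (17.4%) separates the FP libraries, at -1.0 to 70.1, from the PBS libraries, at -41.6 to -24.3.

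Without the total in the model, the calls depended on the test used. edgeR's quasi-likelihood test called 0 of 100480 peaks (0.0%) at a Benjamini-Hochberg adjusted p under 0.05, with a lowest adjusted p of 0.683, and 5236 peaks (5.21%) had an unadjusted p under 0.05, 2442 of them higher (2.43%) and 2794 lower (2.78%) after FP. DESeq2 called 141 peaks (0.14%), 71 higher (0.0707%) and 70 lower (0.0697%). With the log2 library total in the edgeR model, 127 peaks (0.126%) were called. These were 85 rises (0.0846%) in 83 regions and 42 falls (0.0418%) in 29 regions, and "rose" and "fell" below refer to this model. In 114 of the 127 the FP libraries did not overlap the PBS libraries, as in 11.7% of all tested peaks. Also 114 of the 127 had an unadjusted p under 0.05 in the same direction without the total. Both numbers come from the libraries by which the 127 were chosen, so neither is an independent check. The overlap with DESeq2 was 90 peaks, which is 70.9% of the 127 and 63.8% of the 141. The count rested on single libraries. Without FP replicate 2 or without PBS replicate 3 it was 0, without FP replicate 1 it was 8, without PBS replicate 1 it was 42, without PBS replicate 2 it was 124 and without FP replicate 3 it was 1038. All 127 kept their sign in each of these fits. That is no independent check, because the fits reuse libraries by which the 127 were chosen.

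None of the 85 peaks that rose carried the name Foxp3, Ctla4 or Il2ra. Rises were only 0.0846% of all tested peaks, so this says little about those genes. The rise of smallest p with separate groups was in an intron of Gab2, a scaffold adaptor that recruits phosphatidylinositol 3-kinase and the phosphatase SHP2 below cytokine and antigen receptors. The peak (chr7:97209893-97210619) held 6.79, 5.60 and 5.90 CPM (read counts scaled to library size) in the FP libraries, against 1.76, 1.48 and 0.952 CPM in the PBS libraries. The groups were far apart, with a log2 fold change of 2.14 ± 0.32 (SE) without the total (unadjusted p = 5.88e-05) and 2.30 ± 0.28 with it (edgeR adjusted p = 0.00243). A second Gab2 intron peak at 97211046 to 97211439 held 5.23, 3.00 and 2.41 CPM after FP and 1.17, 1.02 and 0.312 CPM after PBS, and rose by 2.59 ± 0.36.

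Next to Tspan14, a tetraspanin that guides the protease ADAM10, a peak with 3 palindromes held 6.20, 6.76 and 7.07 CPM after FP and 0.878, 1.89 and 2.22 CPM after PBS. The lowest FP library stood well above the highest PBS library, and the peak rose by 1.92 ± 0.29 (edgeR adjusted p = 0.00913). Upstream of Rps21, which encodes a ribosomal protein, a peak held 5.64, 5.38 and 6.70 CPM after FP and 2.20, 1.53 and 1.47 CPM after PBS, and rose by 1.81 ± 0.28 (adjusted p = 0.00913). A promoter-labelled peak of Pigz, a mannosyltransferase of GPI anchor synthesis, held 2.89, 2.92 and 4.74 CPM after FP and 0.805, 0.614 and 0.781 CPM after PBS. It rose by 2.19 ± 0.36 (adjusted p = 0.012). In these peaks no FP library reached down to a PBS library, which the rule for naming them required.

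An intron peak of Nedd4l, a HECT ubiquitin ligase, held 19.6, 20.4 and 22.8 CPM after FP and 10.1, 10.4 and 10.9 CPM after PBS, so that both groups were tight and clearly apart (0.98 ± 0.16, edgeR adjusted p = 0.0124). An intron peak of Wwp1, a HECT ligase of the same family, held 6.52, 6.08 and 6.55 CPM after FP and 0.952, 2.81 and 2.06 CPM after PBS, and rose by 1.76 ± 0.31 (adjusted p = 0.019). Ndfip2 encodes a membrane adaptor that recruits and activates such ligases. Its exon peak held 14.5, 11.8 and 13.0 CPM after FP and 6.73, 3.99 and 6.31 CPM after PBS and rose by 1.16 ± 0.21 (adjusted p = 0.024). These genes were singled out after their values were seen.

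The following risen peaks were also chosen after their values were seen, for genes with a known part in T cells. The promoter-labelled peak of Gzma, a granule protease of cytotoxic cells, held 8.08, 5.65 and 5.05 CPM after FP and 1.94, 3.84 and 2.22 CPM after PBS and rose by 1.40 ± 0.26 (edgeR adjusted p = 0.0329). A Ccl1 intron peak, at the gene for the chemokine bound by CCR8, held 23.6, 20.5 and 20.6 CPM after FP and 11.0, 10.9 and 12.3 CPM after PBS and rose by 0.90 ± 0.16 (adjusted p = 0.0177). A peak of Nfatc2, a calcium-driven transcription factor of activated T cells, held 5.92, 6.20 and 6.85 CPM after FP and 2.20, 1.79 and 2.62 CPM after PBS, and rose by 1.43 ± 0.25 (adjusted p = 0.0165). In these peaks the groups did not overlap. The integrin genes Itga2 (an exon peak at 54.9, 46.1 and 45.9 CPM after FP and 29.5, 30.99 and 31.3 CPM after PBS) and Itgb3 (10.9, 11.3 and 11.4 CPM after FP and 3.00, 3.37 and 6.18 CPM after PBS) also had a risen peak. So did Bmf, a pro-apoptotic member of the BCL2 family, whose intergenic peak held 14.2, 19.6 and 21.6 CPM after FP and 6.04, 5.73 and 11.9 CPM after PBS.

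Among the other risen peaks was one of Nampt, the enzyme of NAD salvage, which held 4.08, 5.46 and 6.81 CPM after FP and 2.16, 1.69 and 1.86 CPM after PBS (1.46 ± 0.29, edgeR adjusted p = 0.0435). An intron peak of Mfn2, a GTPase of mitochondrial fusion, held 10.7, 7.88 and 8.31 CPM after FP and 3.44, 2.097 and 3.56 CPM after PBS. The promoter-labelled peak of Mkln1, a subunit of a ubiquitin ligase complex, held 8.85, 9.53 and 13.8 CPM after FP and 3.37, 3.99 and 4.43 CPM after PBS and rose by 1.38 ± 0.23 (adjusted p = 0.0135). All of these had separate groups. Smyd3, a lysine methyltransferase, had an intron peak at 8.81, 9.43 and 8.05 CPM after FP and 3.07, 2.25 and 3.68 CPM after PBS. Fam20a, a pseudokinase of the secretory pathway, had a pair of risen peaks, of which the one labelled 3' end held 13.2, 12.7 and 10.9 CPM after FP and 4.68, 5.22 and 4.89 CPM after PBS.

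The model with the total also called peaks whose groups overlapped, and these differ from the rest. The chromosome 1 peak of mitochondrial origin was called (0.23 ± 0.03, edgeR adjusted p = 0.00243) although the FP and PBS libraries overlapped. An intron peak of Dock1, a guanine exchange factor, held 15.5, 8.44 and 10.2 CPM after FP and 6.00, 14.0 and 2.79 CPM after PBS, with the smallest library, PBS replicate 2, among the highest values. Its log2 fold change was 0.60 ± 0.49 without the total and 1.27 ± 0.21 with it. Overlapping promoter peaks of Ebf3, and peaks of Hmga2, Nnt, Pgm1, F3 and Eps8, were of this kind. The promoter-labelled peak of Zfp652 was not of this kind, since its groups did not overlap. It held 2.02, 3.68 and 4.31 CPM after FP and 0.0732, 0.102 and 1.55 CPM after PBS, with the largest PBS library the highest of its group.

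**Figure D2:**
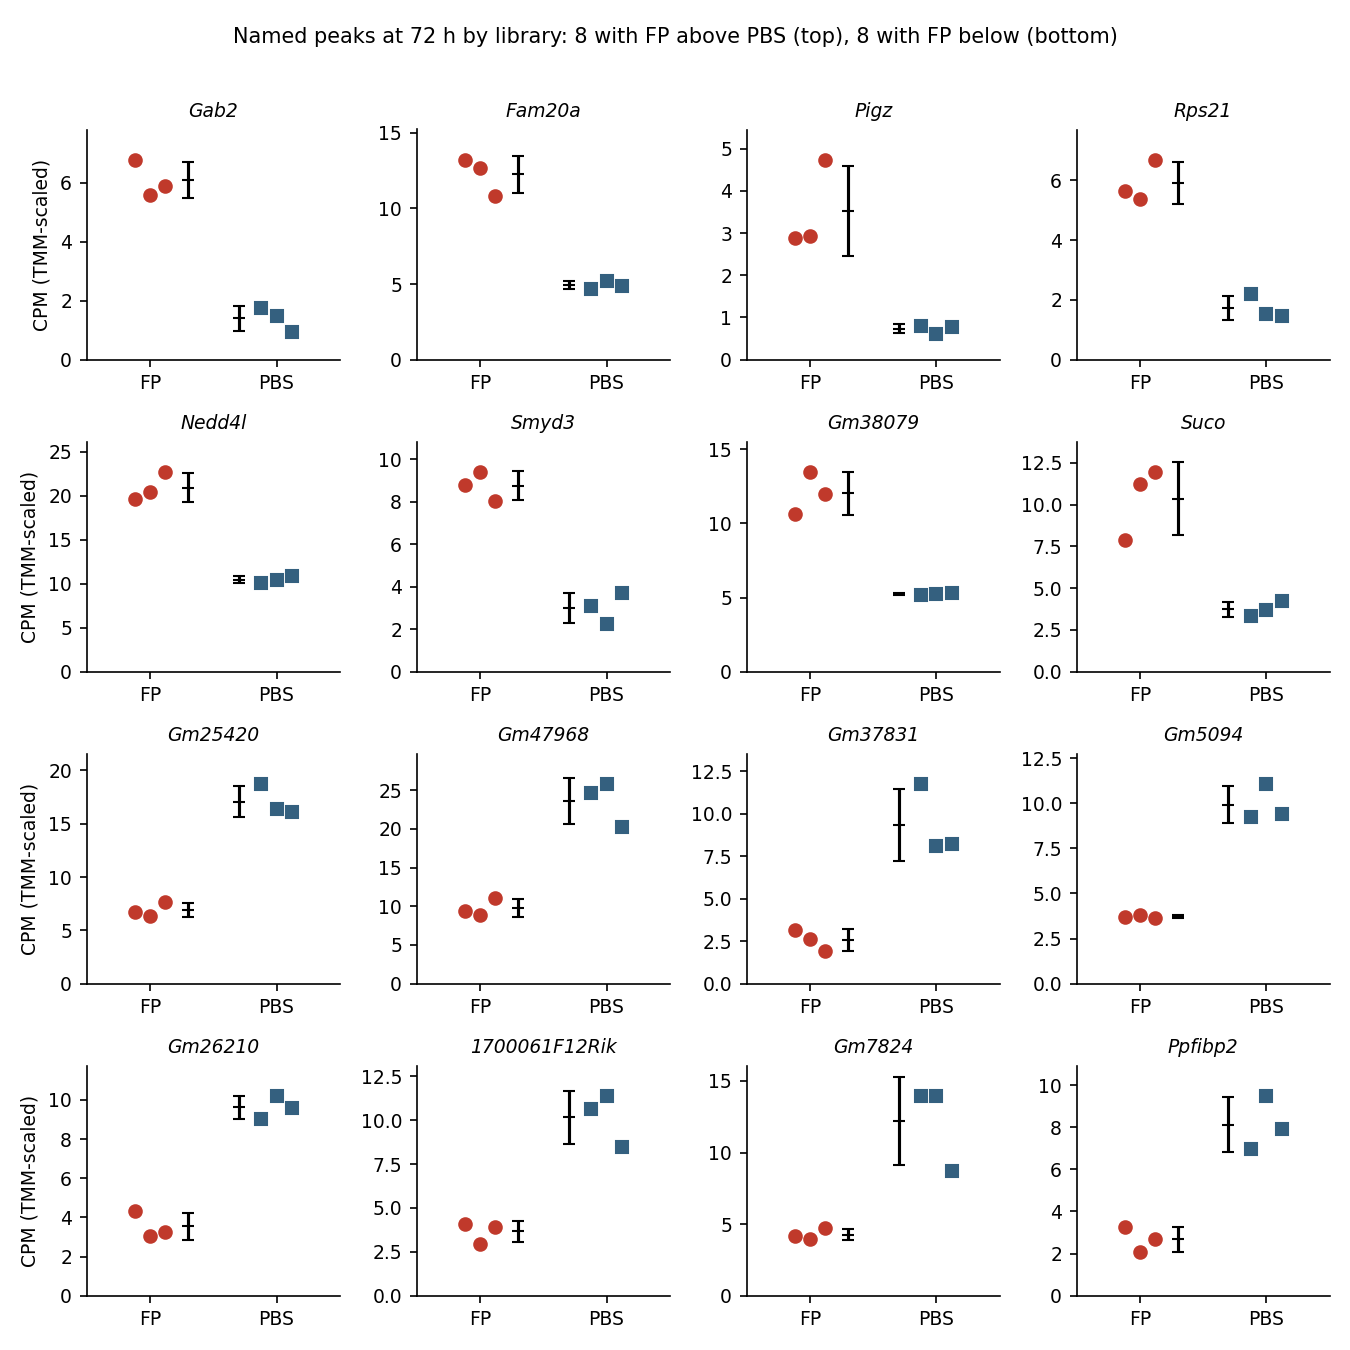
CPM by library for peaks named in the text (TMM-scaled, axes from 0; FP left of PBS; points are libraries, bars the mean ± SD, n = 3 each), 8 with FP above PBS and 8 with FP below. The Gab2 peak sits at 5.60 to 6.79 after FP and 0.952 to 1.76 after PBS, and the Gm25420 peak at 6.35 to 7.61 after FP and 16.1 to 18.8 after PBS.

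None of the peaks that fell was labelled promoter. Of the 42, 71.4% were labelled intergenic, 23.8% intronic and 4.76% 3' end, where 29.1% of all tested peaks were promoter-labelled. Their median distance to a transcript start was 43367.5 bp, against 5578 bp for all, but 15 of the 42 were overlapping peaks in 1 region labelled Gm5094 and 1 labelled Hapln1. The Gm37831 peak lay 1354 bp from a start and the Mmp8 peak 4255 bp. The rises were 35.3% intronic, 24.7% intergenic and 23.5% promoter-labelled, with a median distance of 7976 bp. Most falls carry the name of a predicted or non-coding gene that merely lies nearest, so no function can be given.

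The intergenic peak labelled Gm25420 (chr2:80717744-80718761) held 6.72, 6.35 and 7.61 CPM after FP and 18.8, 16.4 and 16.1 CPM after PBS. The FP libraries lay far below the PBS libraries, and the log2 fold change was -1.31 ± 0.19 (unadjusted p = 4.48e-05) without the total and -1.30 ± 0.18 with it (edgeR adjusted p = 0.00591). The peak labelled Gm47968 (chr10:54254779-54255792) held 9.37, 8.89 and 11.1 CPM after FP and 24.6, 25.9 and 20.3 CPM after PBS, and fell by 1.201 on the log2 scale with the same adjusted p. The Gm37831 peak held 3.17, 2.61 and 1.91 CPM after FP and 11.8, 8.08 and 8.20 CPM after PBS and fell by 1.82. The Gm5094 region on chromosome 17 accounted for 10 of the 42 calls by overlapping peaks, the first of which held 3.69, 3.83 and 3.66 CPM after FP and 9.22, 11.1 and 9.43 CPM after PBS. Overlapping peaks near Hapln1, a link protein of hyaluronan, accounted for 5 more in 1 region.

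Among falls at named genes, an intron peak of Ppfibp2, a liprin, held 3.24, 2.07 and 2.70 CPM after FP and 6.95, 9.51 and 7.93 CPM after PBS and fell by 1.55. An intron peak of Hdac9, a class II histone deacetylase, held 1.01, 1.14 and 0.522 CPM after FP and 2.74, 3.63 and 4.51 CPM after PBS, and fell by 2.09. An intron peak of Stk3, a kinase of the Hippo pathway, held 1.43, 2.09 and 1.87 CPM after FP and 5.38, 7.72 and 4.33 CPM after PBS and fell by 1.52. All of the 42 falls had FP libraries wholly below PBS libraries, where 5.74% of all tested peaks did. The 42 were chosen on these same libraries, so this separation is no independent support.

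The rises and the falls differed in sequence. The stringent STAT5 palindrome occurred in 48 of the 85 rises (56.5%, 57.8% of their regions) and in 4 of the 42 falls (9.52%, 13.8% of their regions), against 7.43% of all tested peaks (8.54% of regions) and 11.9% of peaks of like width (12.3% of regions). Per kilobase there were 1.12 matches in rises, 0.131 in falls and 0.175 in all peaks. The same difference appeared without the total in the model, among peaks picked by unadjusted p: 60.4% of the 53 higher and 7.5% of the 40 lower at p under 0.001, and 41.0% of 519 higher and 7.77% of 476 lower at p under 0.01. With DESeq2 it was 59.2% of rises and 7.14% of falls. When each library was left out in turn, the share among higher peaks at an unadjusted p under 0.001 with the total in the model ranged from 26.2% to 53.7%, and among lower peaks from 6.50% to 11.4%. The matches of the rises lay in the central of 3 equal parts of their peak in 37 of 69 cases (53.6%), against 41.4% of the 8111 matches in all peaks.

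Counting matches gave a graded picture over all tested peaks, with overlapping peaks included. The 93016 peaks with no match had a median log2 fold change of -0.04, the 6866 with 1 match 0.08, the 554 with 2 matches 0.23 and the 44 with 3 or more 0.40. An unadjusted p under 0.05 in favour of FP was reached by 1.92%, 8.03%, 16.4% and 29.5% of these classes, and in favour of PBS by 2.78%, 2.90%, 1.62% and 0.0%. A narrower set held peaks of 503 to 896 bp called as rises neither at 0.75 h after IL-2 nor at 16 h after FP. Its medians over the same classes were 0.01, 0.08, 0.18 and 0.46, the last from 10 peaks. Peaks of like width thus kept the order with the called early rises left out. Peaks that rose short of the threshold stayed in. The Gab2 peak of smallest p was 1 of these, at 1.11 at 0.75 h after IL-2 and 1.34 at 16 h after FP.

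**Figure D3:**
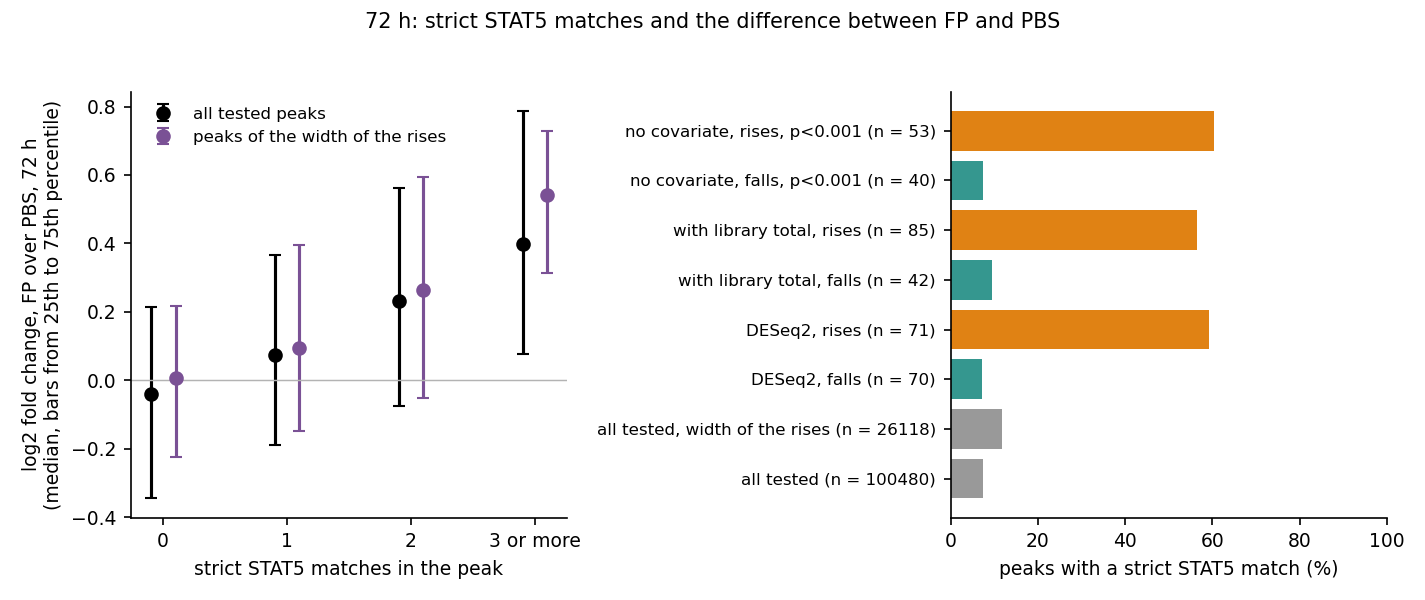
Stringent STAT5 palindromes and the difference between FP and PBS at 72 h: median log2 fold change with quartiles by number of matches (left), in all tested peaks and in those of 503 to 896 bp, and share of peaks with a match (right) in peaks higher (orange) or lower (teal) after FP by each model and in all tested peaks (grey). With the library total the share is 56.5% in rises, 9.52% in falls and 7.43% in all peaks, and the median log2 fold change goes through -0.04, 0.08, 0.23 and 0.40 for 0, 1, 2 and 3 or more matches.

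Other short patterns were searched on both strands. The looser STAT5 palindrome TTCNNNGAA, which includes the stringent one, was in 61.2% of rises and 21.4% of falls. It was in 13.8% of all peaks and in 21.3% of peaks of like width, so the falls did not stand out for it. The RUNX word TGTGGT was in 49.4% of rises, 33.3% of falls and 44.2% of peaks of like width. Without the total RUNX was in 60.4% of higher and 12 of the 40 lower peaks at an unadjusted p under 0.001, in 53.4% of higher and 34.5% of lower peaks at p under 0.01, and in 64.8% of the DESeq2 rises and 35.7% of the DESeq2 falls. The AP-1 word TGANTCA was in 25.9% of rises, 23.8% of falls and 20.95% of peaks of like width. The falls stood out for the NF-kB word (GGG, 2 free bases, then TTTCC), present in 11 of 42 (26.2%) and in 11 of their 29 regions (37.9%), against 4.71% of rises and 5.13% of peaks of like width (5.21% of regions). Without the total in the model it was in 10 of the 40 lower peaks and 3 of the 53 higher peaks at an unadjusted p under 0.001, and in 12.4% of lower and 3.66% of higher peaks at p under 0.01. Its holders included the Gm25420, Gm37831, Gm7824, Gm26210 and Ppfibp2 peaks. This word was 1 of 13 patterns searched and was singled out after the shares were seen.

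Peaks that had opened early were still higher at 72 h as groups, though edgeR called none of them without the total. In fits that hold none of the 72 h libraries, edgeR's quasi-likelihood test called 490 rises (0.488%) in 388 regions at 0.75 h after IL-2, and 115 rises (0.114%) in 111 regions at 16 h after FP, of which 85 were shared. At 72 h the 490 had a median log2 fold change of 0.43 (quartiles 0.18 and 0.73) and the 115 had 0.58, against -0.03 for all peaks, and with the total the medians were 0.41 and 0.53, against 0.02. Of the 490, 414 were positive (84.5%, against 46.9% of all peaks), 157 had an unadjusted p under 0.05 upward and 2 downward, and 194 had FP libraries wholly above PBS libraries and 4 wholly below, against 5.96% and 5.74% of all peaks. Of the 115, 104 were positive (90.4%), 57 had an unadjusted p under 0.05 upward and 0 downward, and 66 were wholly above and 0 wholly below.

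By library, the mean log2 CPM of the 490 peaks relative to all peaks was 0.63, 0.87 and 1.02 in the FP libraries and 0.37, 0.23 and 0.57 in the PBS libraries. The groups did not overlap, but FP replicate 1 and PBS replicate 3 were close. The 115 peaks stood at 1.36, 1.56 and 1.68 in the FP libraries and 0.91, 0.87 and 1.11 in the PBS libraries, with a wider gap. The library of smallest total, PBS replicate 2, was lowest in both sets, and the largest, PBS replicate 3, was highest among PBS libraries. Among FP libraries replicate 3 was highest and replicate 1, with the smallest FP total, lowest. Each alternative setting kept both medians positive, at 0.35 to 0.55 for the 490 and 0.51 to 0.61 for the 115.

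Set beside the other times, each measured against its own PBS libraries, the 490 had medians of 1.10 at 0.75 h, 1.14 at 16 h, 0.43 at 72 h and -0.01 at 168 h after FP. The 115 had 1.01 at 0.75 h, 1.68 at 16 h, where they were chosen, 0.58 at 72 h and -0.05 at 168 h. The groups of libraries at 0.75 h used for IL-2 and FP share their PBS libraries, so the median of 1.10 is not independent of the choice of the 490. At 168 h the early responders were centred like all peaks (-0.01).

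**Figure D4:**
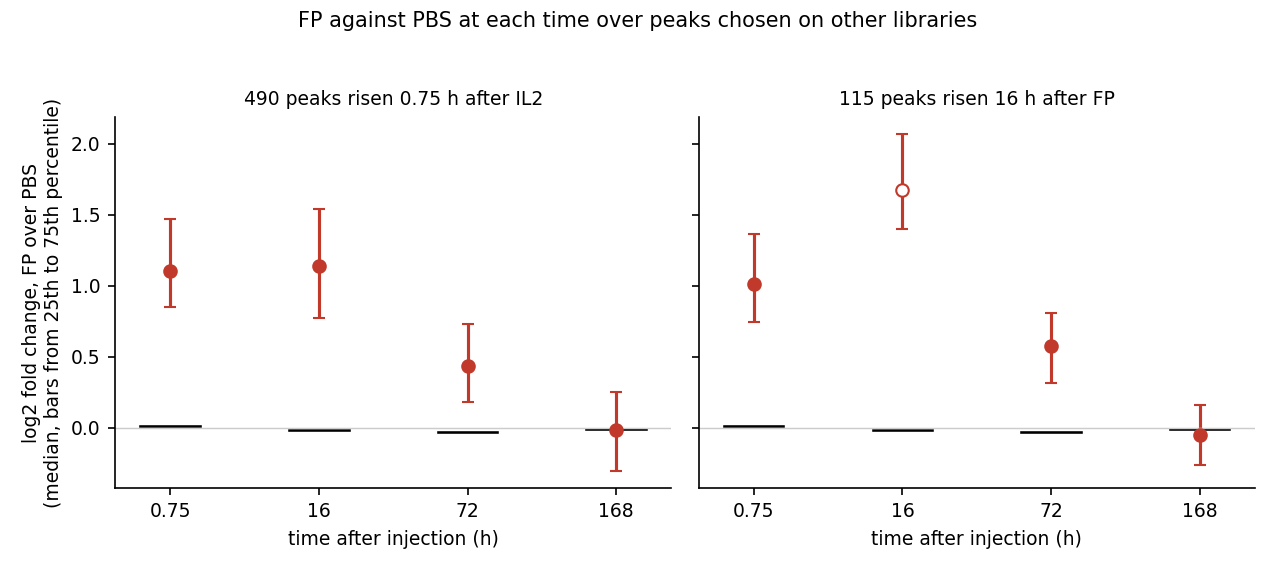
Log2 fold change of FP over PBS at each time (h) for peaks that rose at 0.75 h after IL-2 and at 16 h after FP, as medians with quartiles; black lines are medians of all peaks, and the open point is the fit in which the peaks were chosen. At 72 h the medians are 0.43 and 0.58, and at 168 h they are -0.01 and -0.05. For the peaks chosen after IL-2, the 0.75 h point shares its PBS libraries with the choice.

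Single early responders differed in what remained. A peak in an intron of Bcl2, the survival protein, which the authors' table labels promoter and whose nearest start, 25 bp away, is that of Gm37053, held 7.87, 11.7 and 14.9 CPM after FP and 5.42, 2.66 and 7.48 CPM after PBS at 72 h. The groups lay apart by a small margin, at 1.13 ± 0.37 (unadjusted p = 0.0124; edgeR adjusted p with the total = 0.0939), where IL-2 at 0.75 h had given 2.14, FP at 16 h 1.95 and FP at 168 h 0.59. A Cdk6 intron peak, at the gene for a kinase of G1 progression, held 9.23, 13.7 and 15.4 CPM after FP and 4.21, 5.06 and 8.37 CPM after PBS (1.11 ± 0.30, adjusted p with the total = 0.0659), against 1.80 at 16 h and 0.02 at 168 h. Neither passed the threshold. The Cyth1 intron peak, at the gene for an ARF exchange factor, stood at 0.79 ± 0.40, with overlapping groups. A Fhit intron peak that IL-2 had opened by 2.56 at 0.75 h held 4.46, 4.36 and 3.39 CPM after FP and 4.14, 3.58 and 4.37 CPM after PBS at 72 h, and its log2 fold change of 0.01 ± 0.26 changed sign between settings.

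The difference between times was tested directly. The FP effect at 72 h minus that at 16 h was called for 1 of 104520 peaks (0.000957%) by edgeR's quasi-likelihood test over all 31 libraries. That peak lies in an intron of Gad2 (chr2:22679731-22680633), which encodes a glutamate decarboxylase, and differed by -2.84 ± 0.46 (adjusted p = 0.044), while 3108 peaks (2.97%) had an unadjusted p under 0.05. It held 7.42, 7.40 and 5.53 CPM after FP and 4.61, 4.14 and 5.37 CPM after PBS at 72 h (0.52 ± 0.25), against 3.38 ± 0.29 at 16 h and -0.05 at 168 h. The call was 0 when any of the 72 h libraries was left out. The FP effect at 72 h minus that at 168 h was called for 0 peaks (0.0%, lowest adjusted p 0.99991), with 1522 peaks (1.46%) at an unadjusted p under 0.05. DESeq2 was not run on these differences.

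Of the 85 rises at 72 h, 17 were called in either early fit, which is 20.0% of the rises and 3.27% of the 520 early responders, and 68 were called in neither. Nedd4l, Wwp1, Rps21, Smyd3, Suco and Tspan14 were of the first kind. Those 68 still carried the stringent palindrome in 48.5%, against 70.6% of the 490 and 85.2% of the 115. Over all 85, the median log2 fold change was 0.55 at 0.75 h after IL-2, 0.46 at 0.75 h after FP, 0.82 at 16 h and 0.26 at 168 h, and 74 of 85 were positive at 16 h and 60 of 84 at 168 h. The falls followed another course. Their medians were -0.21 at 0.75 h, -0.30 at 16 h and -0.77 at 168 h after FP, and at 168 h all 42 peaks, in all 29 regions, were below PBS, where 50.7% of all peaks were, with 20 of 42 at an unadjusted p under 0.05 (2.47% of all peaks in that direction). No peak was called at 168 h (0.0%, edgeR lowest adjusted p 0.899). The values at 168 h come from libraries that did not enter the choice of these peaks.

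The gene lists, 19 with 295 genes of which 275 had a tested peak, described the pathway around IL-2 and the cells. In the list of IL-2 and STAT5 response genes (266 peaks in 186 regions), 17 peaks had an unadjusted p under 0.05 upward and 2 downward, against 2.43% and 2.78% of all tested peaks, and 1, at Wwp1, was called with the total. Its median was 0.19 without and 0.08 with the total, against -0.03 and 0.02 for all peaks. Some of its genes, such as Gad2, Wwp1, Ptpn1 and Cdk6, were listed because of earlier results of these data. The most accessible peak of Il2ra, the receptor's CD25 chain, held 12.2, 15.5 and 20.7 CPM after FP and 16.1, 14.0 and 20.8 CPM after PBS, without a difference larger than the spread (-0.07 ± 0.24). The feedback inhibitor Cish had its highest peak at 16.7, 21.0 and 20.9 CPM after FP and 14.6, 12.7 and 20.1 CPM after PBS (0.30 ± 0.21). Picked after their values were seen, 3 other Cish peaks stood at 0.63, 1.18 and 1.08 with FP above PBS. Such separation was found in 5.96% of all tested peaks, so these 3 do not describe the gene as a whole. For the feedback inhibitor Socs2 the promoter-labelled peak held 20.0, 28.3 and 27.5 CPM after FP and 16.8, 12.6 and 22.3 CPM after PBS (0.55 ± 0.23). The highest Bcl2 peak, in an intron, held 29.3, 33.8 and 41.8 CPM after FP and 19.3, 16.1 and 26.9 CPM after PBS (0.75 ± 0.22, edgeR adjusted p with the total = 0.0752).

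Treg identity genes held no called peak. Only 0.126% of all tested peaks were called with the total, so this absence says little about these genes. Of 190 peaks, 8 had an unadjusted p under 0.05 upward and 1 downward, against 2.43% and 2.78% of all tested peaks. Their median was 0.15 without and 0.03 with the total, against -0.03 and 0.02 for all peaks. The highest peak carrying the name of Foxp3, the lineage's defining factor, is labelled promoter, carries the names Ppp1r3f, Gm36995 and Flicr too and lies at the start of Ppp1r3f. It held 13.3, 19.7 and 27.4 CPM after FP and 15.04, 14.7 and 24.1 CPM after PBS (0.16 ± 0.29). The promoter peak of Ctla4, the inhibitory receptor, held 19.1, 22.2 and 27.5 CPM after FP and 22.3, 20.6 and 28.1 CPM after PBS (-0.05 ± 0.19). In both, the groups overlapped almost fully. Ikzf2, encoding Helios, stood at -0.18 ± 0.26. Of the 62 tested peaks of Nrp1, the surface receptor neuropilin-1, 5 had an unadjusted p under 0.05, all upward, and none was called.

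Effector Treg genes had 329 peaks in 189 regions, of which 12 had an unadjusted p under 0.05 upward and 20 downward, against 2.43% and 2.78% of all tested peaks, and 1 was called with the total, at Gzma. Their median was 0.10 without and 0.03 with the total, against -0.03 and 0.02 for all peaks. The upward side held Klrg1, an inhibitory receptor of terminal effector cells, at 5.26, 5.15 and 4.66 CPM after FP and 1.68, 2.76 and 3.67 CPM after PBS (0.88 ± 0.32), and Gzmb, a granule protease, at 2.61, 4.51 and 4.24 CPM after FP and 2.93, 1.74 and 1.64 CPM after PBS (0.86 ± 0.36). The downward side came from few places: 9 overlapping Irf4 intron peaks, 8 overlapping peaks labelled Gata3, 2 of Rora and 1 of Pdcd1. The Gata3-labelled region on chromosome 2 had a peak at 1.18, 1.26 and 2.22 CPM after FP and 4.03, 3.17 and 4.42 CPM after PBS (-1.31 ± 0.35, edgeR adjusted p with the total = 0.0679), while the Gata3 promoter peak stood at -0.19 ± 0.20. Irf4 and Gata3 are transcription factors of effector Tregs and helper cells.

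The other lists are set beside the 2.43% upward and 2.78% downward of all tested peaks. Chemokine receptor and trafficking genes had 15 of 240 peaks upward and 2 downward, with a median of 0.19 without and 0.14 with the total; 11 of the 15 carried the name Ccr4, mostly as overlapping promoter peaks, of which the most accessible held 9.37, 11.4 and 11.2 CPM after FP and 6.95, 6.24 and 8.60 CPM after PBS (0.55 ± 0.22). T cell receptor signalling genes had 13 of 398 peaks upward and 12 downward without the total. With the total they had 13 upward and 31 downward, where 5566 and 4221 of all 100480 tested peaks were, and 1 called rise, at Nfatc2. All 12 downward ones without the total belonged to Tox, a chromatin factor of chronically stimulated T cells, and 8 of them overlapped. Helper lineage genes had 5 of 145 upward and 12 downward, among them the Gata3 region. Resting and lymphoid-homing genes had 10 of 310 upward and 4 downward without the total and 14 upward and 12 downward with it, with a median of 0.11 without and -0.01 with the total.

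Cell cycle genes had 8 of 136 peaks upward and 3 downward, with a median of -0.02. The promoter-labelled peak of Plk1, a mitotic kinase, which also carries the name Gm15489, held 23.4, 23.3 and 17.3 CPM after FP and 13.2, 10.8 and 13.8 CPM after PBS (0.75 ± 0.19, edgeR adjusted p with the total = 0.0858). The proliferation marker Mki67 stood at 32.6, 28.6 and 30.7 CPM after FP and 25.4, 26.0 and 26.3 CPM after PBS (0.24 ± 0.14). Both had FP wholly above PBS, as 5.96% of all tested peaks did, and neither was called. NF-kB and TNF receptor genes had 6 of 179 upward and 2 downward, mTORC1 and MYC metabolism 4 of 101 and 0, AP-1 genes 1 of 48 and 0, interferon response genes 2 of 61 in each direction, and constitutive genes 2 of 71 and 0. Medians of these lists were 0.02, 0.13, 0.11, 0.18 and 0.05 without the total and -0.02, 0.03, -0.01, 0.12 and -0.04 with it.

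**Figure D5:**
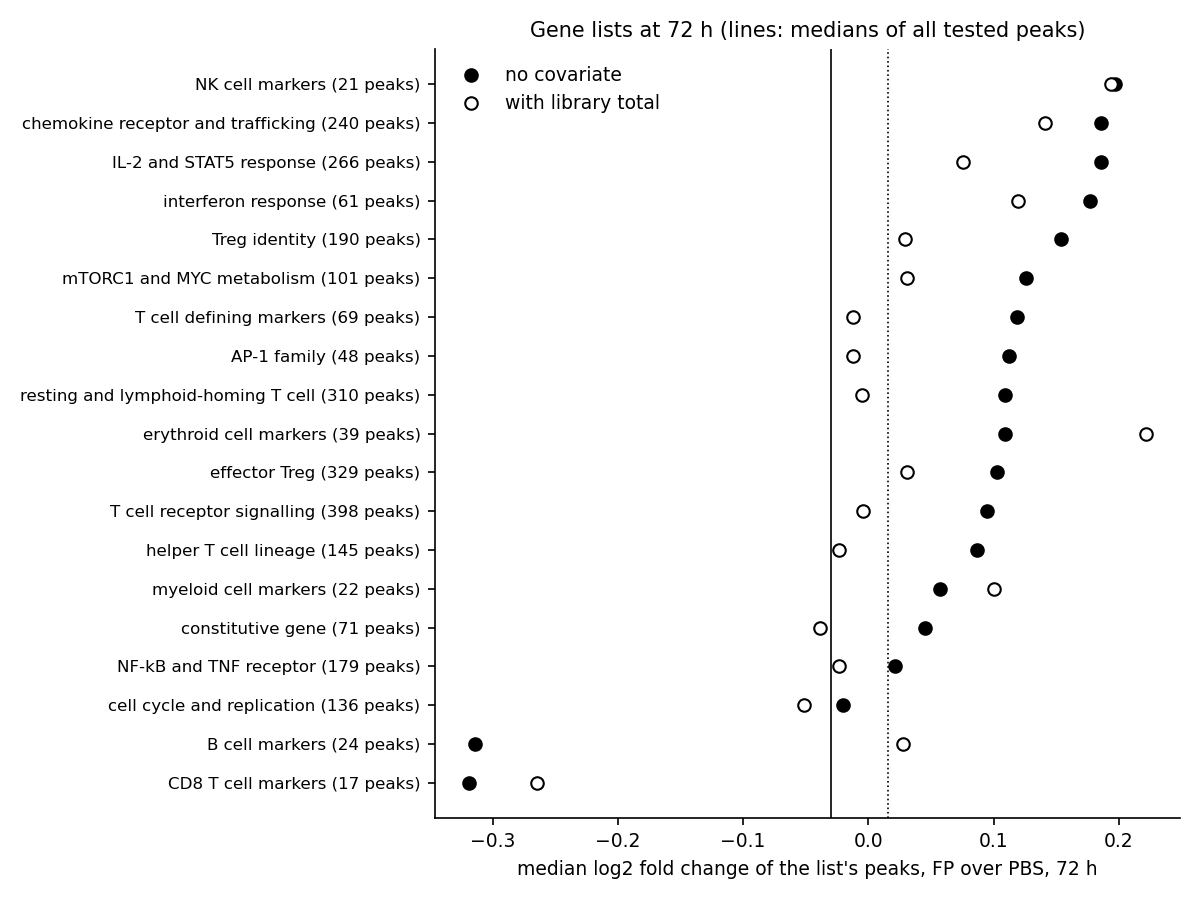
Gene lists at 72 h: median log2 fold change of the peaks of each list without (filled) and with (open) the library total; the solid and dotted lines are the medians of all tested peaks without and with it. The IL-2 and STAT5 list moves between 0.19 and 0.08, and T cell defining genes between 0.12 and -0.01.

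Summed levels of marker peaks of other cells overlapped between FP and PBS libraries, except for natural killer (NK) genes. T cell defining genes, Foxp3 and Il2ra included, had peaks in every library, with summed levels of 324 to 533 CPM in the FP libraries and 306 to 496 CPM in the PBS libraries. B cell markers had tested peaks at 7 of 11 genes and summed to 81.1 to 131 CPM after FP and 88.8 to 144.5 CPM after PBS, and no tested peak carried the names Ms4a1 or Cd79b. CD8 T cell markers summed to 44.5 to 83.4 CPM after FP and 78.0 to 90.9 CPM after PBS. Those of NK cells (5 of 7 genes) summed to 141 to 159 CPM after FP and 116 to 140.5 CPM after PBS, all FP libraries above, mostly from 1 intergenic peak labelled Klrb1c, with no tested peak at Ncr1. Of the 21 NK peaks, 0 had an unadjusted p under 0.05 upward and 2 downward in edgeR's test without the total. The part of NK cells in the Gzma and Klrg1 values was not tested. Myeloid markers (4 of 13 genes) summed to 94.5 to 123 CPM after FP and 92.3 to 106 CPM after PBS, and erythroid markers (6 of 10 genes) to 152 to 174 CPM after FP and 122 to 156 CPM after PBS. Of the 39 erythroid peaks, 9 had an unadjusted p under 0.05 upward and 0 downward, against 2.43% and 2.78% of all tested peaks, and all 9 were overlapping Gata1 promoter peaks.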

How the data were processed

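The authors deposited 1 table of whole-number counts of reads per peak for all 31 libraries, with peak positions and gene names, which per the file headers carries 1 column per library. Its first library column (unit other, by the authors' deposited table also a count) shifts where gene names hold commas, in 9561 lines, so fields were taken from the right end, and 0 columns were left unmapped. Reads were mapped with BWA to GRCm38 (mm10) and peaks called with MACS2 2.1.2, per the submitters' processing notes. No source used here names the counter, a duplicate filter or the method behind the common peaks. Per the labels, 2 technical replicates were made per biological sample, which the table does not separate. The series' design text names DESeq2 and p under 0.05 for the authors' own test.

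Counts were filtered with filterByExpr (minimum count 10, total 15), scaled by TMM and tested with edgeR's quasi-likelihood test (edgeR 4.0.16, limma 3.58.1, DESeq2 1.42.0, R 4.3.3), Benjamini-Hochberg over all tested peaks, threshold 0.05. The main design had treatment only, and the log2 library total was added in a second design. CPM values are TMM-scaled, with no log. The log2 levels behind the principal components and the replicate deviations use a prior count of 2. For the means of early peaks by library, a small constant was added to the CPM before the log. An SE is the log2 fold change divided by the root of the F value. Tables, sequences and figures used Python 3.11.15, numpy 2.4.6, pandas 2.3.3 and matplotlib 3.10.9. The tests were also run on simulated counts. Those held no trend with library total, so they do not show how the design with the total handles one. Replicates of a group differed beyond sampling noise, with a chi-square per degree of freedom of 9.45 to 36.5. In the GENCODE M21 annotation, 99.9% of promoter-labelled peaks lay within 1 kb of a transcript start and 97.8% of gene names were found.

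Named peaks were those of smallest p in each direction (8 each) whose groups did not overlap and whose mean log2 CPM reached 1. The largest changes called with the total were named under the same conditions. Also named were the highest peak of listed genes, the 5 peaks of smallest p in each early fit, and those whose effect differed between times. Other named peaks were chosen after their values were seen. Members and lists were chosen with earlier results of these data known. Alternatives were RLE or total scaling, other filters, robust fitting, all libraries in 1 fit, offsets by abundance, the replicate block and leaving out each library.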

Additional observations from a re-analysis of the deposited data

Results flagged for a closer look

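One result differed between times under the same contrast. The FP effect on the Gad2 intron peak differed between 72 h and 16 h, by -2.84 ± 0.46 on the log2 scale, in edgeR's test of the difference itself over all 31 libraries (Benjamini-Hochberg adjusted p = 0.044). The peak was higher after FP in all 3 libraries at 72 h, by 0.52 ± 0.25, and by 3.38 ± 0.29 at 16 h. The call was also made with other size factors and with library total in the model, and was not made when any of the 72 h libraries was left out.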

How the results depend on the processing

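Without a covariate, the 72 h comparison called 0 peaks with every edgeR setting tried and in every leave-one-out fit, against 141 with DESeq2 and 127 with the library total. With the total in the model, an alternative added after seeing the data gave 748 with DESeq2, and leaving out 1 library gave 0 to 1038. The difference from 16 h was called for 1 peak, and for 0 whichever 72 h library was left out. The cause of these shifts was not tested. The Fhit peak turned to -0.00286 with a mean log2 CPM of at least 1, -0.016 with the library total, -0.000257 with abundance-dependent offsets and ranged from -0.053 to 0.13 when each library was left out. With the replicate number as a block, 0 peaks were called. Deviations of same-numbered FP and PBS libraries correlated at 0.20, -0.19 and 0.58, and FP replicate 1 correlated best with PBS replicate 2 (0.58), so the numbers were not taken as pairs. Across 17 alternative settings, the medians of 13 of the 19 lists changed sign in at least 1. They did so in 1 setting for IL-2 and STAT5, metabolism, erythroid and myeloid genes, in 2 for resting and B cell genes, in 3 for AP-1, NF-kB, T cell receptor, helper and T cell defining genes, in 4 for constitutive genes and in 5 for cell cycle genes. Treg identity, effector Treg, chemokine, interferon, CD8 and NK genes kept their sign. Depth was examined only through the fits with the library total. The biological coefficient of variation was 38.6% with 4 residual degrees of freedom, and 3 with the total.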
